A study of Daphnia magna with 45 samples.

Results

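A set of 150 transcript IDs of Daphnia magna, a freshwater crustacean, varied from library to library in the direction opposite to the abundant ID Dapma7bEVm015017t1. The 150 IDs were chosen by measured values. The level of each ID was taken as log2(CPM + 1), where CPM is the number of reads of an ID per 1000000 reads of its library. The mean of each group of exposure and hour was subtracted, and IDs with a mean of at least 5 CPM and a pooled within-group SD of at least 0.5 were ranked by the Pearson r of their deviations with those of Dapma7bEVm015017t1 over 44 libraries. Of 19159 IDs, 3863 met both limits, and the 150 with the most negative r were taken. Those r and deviations are therefore a description of the choice and carry no test. The files and the reference table pair none of these IDs with a gene name, a product or a sequence, so no function can be given, and the IDs are described by their levels.

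RNA came from whole bodies of female animals of strain Xinb3, 5 days old, kept as 20 animals in 35 ml of solution. The exposed groups held propranolol at 1 mg/L (1, 3, 6 and 24 h), propranolol at 4 mg/L (1, 6 and 24 h), isoprenaline at 100 mg/L (1 and 6 h), or both agents at once at 1 mg/L of propranolol plus 100 mg/L of isoprenaline, called the mixture here (1 and 6 h). Unexposed controls were sampled at 1, 3, 6 and 24 h, with 1 further control library at 0 h that entered neither the choice of IDs nor any comparison. Each group had 3 libraries, except 2 for propranolol 4 mg/L at 6 h, and totals ran from 13.5 to 43.7 M reads. What the control solution held is not given in the sources used here, and the labels do not call the replicates separate cultures. The p-values therefore cover library-to-library spread alone, and this may be technical.

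Propranolol blocks beta-adrenergic receptors and isoprenaline activates them. In arthropods the roles of adrenaline and noradrenaline are largely taken by octopamine and tyramine, which act on related receptors. RNA of a whole crustacean pools gut, muscle, epidermis, fat cells and the developing ovary, so a level is an average over tissues: fewer cells of a type and less RNA per cell cannot be told apart.

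Dapma7bEVm015017t1 itself was the third most abundant ID by mean CPM and spanned 84.7 to 46066 CPM, a 544-fold range. Its values were unevenly spread. It was below 400 CPM in 15 of the 44 libraries, above 10000 CPM in 25, and between 825 and 6298 CPM in the other 4. Its pooled within-group SD was 3.55 on the log2 scale.

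The r of the 150 IDs ran from -0.94 to -0.87 with a median of -0.89. The limit fell in a continuous range. The last ID inside and the first outside both had an r of -0.865, 316 of the 3863 IDs were below -0.8 and 1231 were below -0.5. The 150 IDs are thus the far end of a wider group. They were mostly of modest abundance, with mean CPM of 5.05 to 1574 and a median of 16.6, and together they made up 0.492% to 1.60% of each library's reads. None was at 0 in any of the 44 libraries, and the smallest value rested on 13 reads.

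Their swings were far smaller than those of Dapma7bEVm015017t1. Per doubling of Dapma7bEVm015017t1, the 150 IDs changed by -0.29 to -0.12 on the log2 scale, with a median of -0.15. Within groups their SD was 0.50 to 1.19, with a median of 0.59. Between its lowest and highest library the median ID differed 5.83-fold, and the range over the 150 was 3.243-fold to 43.98-fold.

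They also varied with each other. The median pairwise r of their deviations was 0.88, the lowest was 0.65, and a single component held 87.6% of their within-group variance. Part of this follows from the choice, since any pair of IDs at the limit must share an r of at least 0.50.

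In CPM, an abundant ID that takes more reads lowers all others, so the shift of all IDs was measured beside that of the 150. The share of Dapma7bEVm015017t1 in a library's reads was 0.00847% to 4.61%, and that of the 865 IDs meeting the limits with an r above 0.9 to it was 0.633% to 13.9%. The median deviation of all 19159 IDs stayed between -0.12 and 0.13 in every library. The mean deviation of the 150 IDs ran from -0.83 to 0.88, and from -0.81 to 0.88 after scaling each library by its median log ratio. Under that scaling 130 of the 150 were chosen again.

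**Figure D1:**
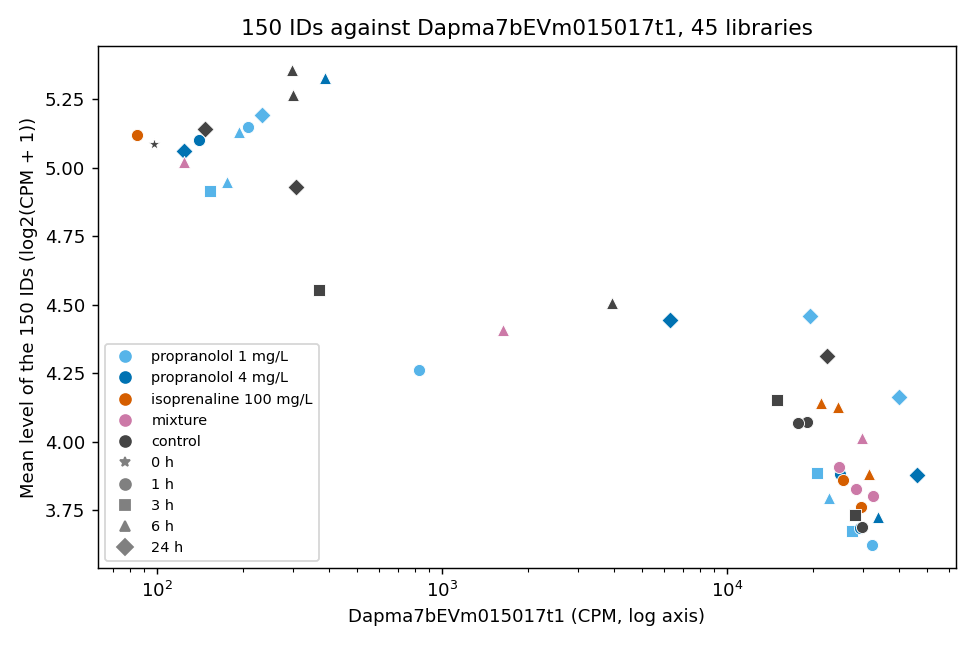
Mean level of the 150 IDs (vertical axis, log2(CPM + 1)) against the level of Dapma7bEVm015017t1 (horizontal axis, CPM on a log scale), 1 point per library, coloured by exposure and shaped by hour. Libraries below 400 CPM of Dapma7bEVm015017t1 sit between 4.55 and 5.36, and those above 10000 CPM between 3.62 and 4.46. This relation was used to choose the IDs.

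Libraries of the same group often lay at opposite ends. The following values are means of log2(CPM + 1) over the 150 IDs. At 1 h propranolol 1 mg/L had 3.62, 5.15 and 4.26 in replicates 1 to 3, propranolol 4 mg/L had 3.68, 5.10 and 3.88, and isoprenaline had 3.76, 5.12 and 3.86. In those 3 groups replicate 2 was the highest library, and it held 208, 140 and 84.7 CPM of Dapma7bEVm015017t1, the lowest of each group. The mixture had 3.83, 3.80 and 3.91 and the control 3.69, 4.07 and 4.07, with every library low and none below 17631 CPM of Dapma7bEVm015017t1. At 3 h propranolol 1 mg/L had 3.67, 4.92 and 3.89 and the control 3.73, 4.55 and 4.15, again with replicate 2 on top in both.

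At 6 h propranolol 1 mg/L had 3.79, 5.13 and 4.95, and propranolol 4 mg/L had 3.72 and 5.33, the widest gap of any group, a 3.04-fold difference in level. Isoprenaline had 4.13, 4.14 and 3.88, all low and close together, and the mixture had 4.41, 5.02 and 4.01. The control had 4.50, 5.36 and 5.27, so each of its libraries was above every isoprenaline library. At 24 h propranolol 1 mg/L had 5.19, 4.16 and 4.46, propranolol 4 mg/L had 5.06, 3.88 and 4.44, and the control had 4.93, 4.31 and 5.14. The exposures overlapped with the control at 24 h.

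The replicate number went with the level up to 6 h. Replicate 2 was the highest library in 6 of 7 groups at 1 and 3 h and in 5 of 5 groups at 6 h, but in 0 of 3 groups at 24 h, where replicate 1 was the highest in 2. The lead of replicate 2 was narrow in the control at 1 h (4.073 against 4.068) and isoprenaline at 6 h (4.139 against 4.127). After median log-ratio scaling replicate 3 led in the former (4.034 against 4.009) and replicate 1 in the latter (4.0989 against 4.0973). The labels do not say what a replicate number stands for, and its part in these values was not tested. Depth largely overlapped between the ends. The 8 libraries with the highest mean deviation held 13.5 to 22.8 M reads and the 8 with the lowest held 16.9 to 43.7 M. The 43.7 M belonged to a single library, propranolol 4 mg/L replicate 2 at 24 h. All others of the lowest 8 lay within the range of the highest 8. The part of depth was not tested either.

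**Figure D2:**
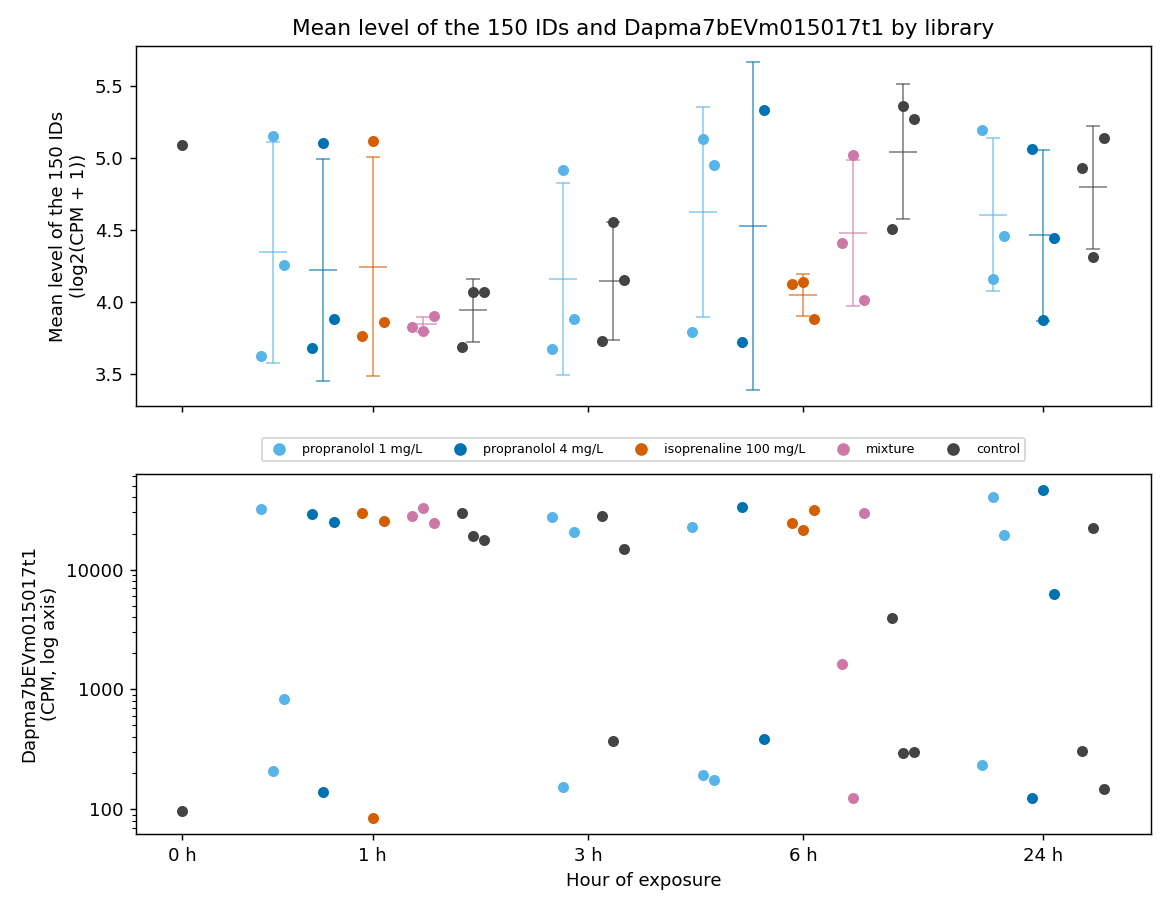
Upper panel, mean level of the 150 IDs (log2(CPM + 1)) in each library, with the group mean and SD. Lower panel, Dapma7bEVm015017t1 (CPM, log axis). Points run by replicate within a group, exposures stand left of the control, and hours run left to right. The isoprenaline libraries at 6 h (3.88 to 4.14) lie below the 3 control libraries of that hour (4.50 to 5.36).

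Averaged per group, the 150 IDs were lowest in the mixture at 1 h (3.85 ± 0.0549), the control at 1 h (3.94 ± 0.22) and isoprenaline at 6 h (4.05 ± 0.145; SD, n = 3 each). Next came the control at 3 h (4.14 ± 0.411), propranolol 1 mg/L at 3 h (4.16 ± 0.665), and propranolol 4 mg/L (4.22 ± 0.767), isoprenaline (4.25 ± 0.756) and propranolol 1 mg/L (4.34 ± 0.766) at 1 h. Propranolol 4 mg/L at 24 h (4.46 ± 0.592), the mixture at 6 h (4.48 ± 0.507) and propranolol 4 mg/L at 6 h (4.53 ± 1.14, n = 2) followed. Propranolol 1 mg/L was at 4.61 ± 0.529 at 24 h and 4.63 ± 0.725 at 6 h. The control was highest, at 4.79 ± 0.429 at 24 h and 5.04 ± 0.468 at 6 h. Each step in this order was smaller than the larger SD of the neighbours it separates. Steps between neighbours in a sorted list are small by construction, so this does not compare groups further apart in the order.

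The group means were not used to choose the IDs, since the choice rested on deviations from them, although both come from the same 44 libraries. Across the 15 group means, all 150 IDs had a negative r with Dapma7bEVm015017t1, from -0.91 to -0.27 with a median of -0.75. An r below -0.5 was found for 139 of the 150 (92.7%), against 15.5% of the 3863 IDs that met the level and spread limits and 20.2% of all IDs. The medians of those 2 backgrounds were 0.17 and -0.09. With median log-ratio scaling the median of the 150 was -0.71 and all 150 stayed negative. Leaving out each group in turn gave medians of -0.80 to -0.70, with all 150 negative each time. These r are a description over 15 points of 2 or 3 libraries each, with no p. A mean of so few libraries also carries their spread, so the means and the deviations are not free of the same library differences. The choice by deviations thus favours a negative r across the means, and these r are no separate support. For the 150 IDs with the most positive r of deviations, the median r across group means was 0.98, with all 150 positive.

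**Figure D3:**
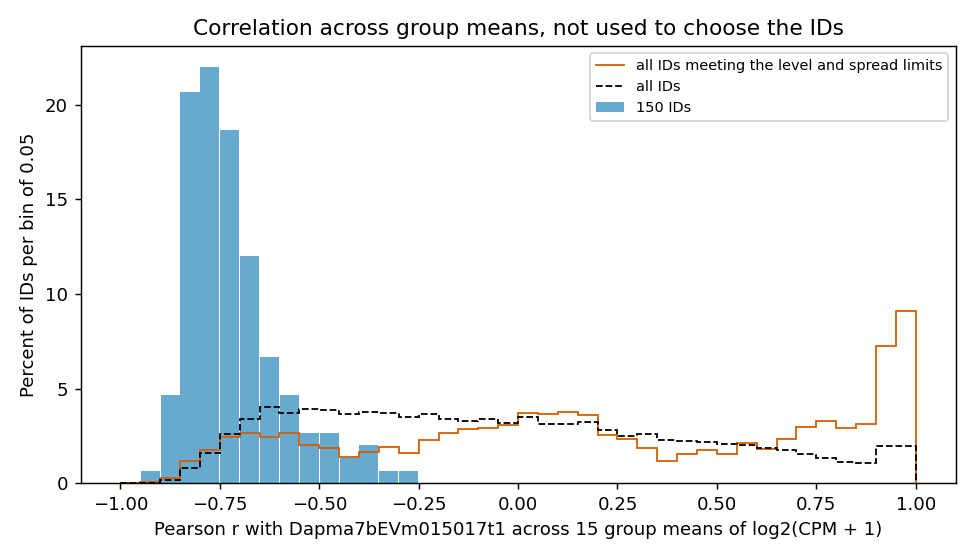
Percent of IDs (vertical axis) by Pearson r with Dapma7bEVm015017t1 across 15 group means of log2(CPM + 1) (horizontal axis, bins of 0.05), for the 150 IDs (bars), the 3863 IDs meeting the level and spread limits (solid line) and all IDs (dashed line). The bars lie wholly below 0, with a median of -0.75.

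Differences between groups were tested with limma on log2(CPM + 1), over all 19159 IDs and all groups in a shared fit, and an ID was called at a Benjamini-Hochberg adjusted p under 0.05. The 150 IDs had a median SE of 0.465 for a difference between groups of 3, against 0.279 over all IDs, because only IDs with a wide spread within groups could be chosen. The test is therefore less sensitive for them than for most IDs, and an ID that was not called is not shown to be unchanged. Since the 150 were chosen to vary together, a count over them is not a count of 150 separate observations.

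Over the hours the unexposed animals showed the largest differences. At 24 h the control was above 1 h in 143 of the 150 IDs, with a median log2 change of 0.87 (range -0.81 to 2.47), against 0.05 over all IDs and -0.61 over those meeting the limits. By limma, 11 of the 150 rose and 0 fell. Limma rises made up 7.59% of all IDs and 5.23% of the IDs meeting the limits. With edgeR 8 of the 150 rose (5.33%), against 5.67% of all IDs. By either test the share of the 150 that passed was near the background. In 100 of the 150 each 24 h library was above each 1 h library, which held for 22.7% of all IDs and 17.1% of those meeting the limits. The 11 calls became 2, 5 and 5 without replicates 1, 2 and 3 at 1 h and 3, 20 and 2 without those at 24 h. Rises over all IDs were then 1.83%, 4.86% and 5.18%, and 3.08%, 7.26% and 3.61%. Replicate 2 at 24 h was the library with 22432 CPM of Dapma7bEVm015017t1.

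At 6 h the control was higher than at 1 h in all 150 IDs, with a median log2 difference of 1.08 and a range of 0.14 to 2.38, against 0.06 over all IDs and -0.39 over those meeting the limits. Each 6 h library was above each 1 h library in 136 of the 150, against 22.2% of all IDs and 17.7% of those meeting the limits. None passed the adjusted test with limma or with edgeR, and 0.00522% of all IDs were called. An unadjusted limma p under 0.05 was found for 105 of the 150 (70%), all higher, and for 21.8% of all IDs in either direction. Because the 150 vary together, these are not counts of separate observations. At 3 h the median difference was 0.19, against 0.08 over all IDs, and 0.084 after median log-ratio scaling, with 133 of 150 higher as deposited, 0 called among the 150 by limma or edgeR, 0 with an unadjusted p under 0.05, and 0% called over all IDs. By group means, most of the 150 IDs were not higher at 24 h than at 6 h in the control. Only 38 had a higher mean at 24 h, and the median difference was -0.22. The mean levels of the libraries overlapped (4.31 to 5.14 at 24 h and 4.50 to 5.36 at 6 h), and this difference was not tested.

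The hours were compared within each exposure as well. In propranolol 1 mg/L the median log2 differences at 3, 6 and 24 h against 1 h were -0.19, 0.27 and 0.30. At 3 and 6 h 0 of the 150 were called by limma or edgeR, with 0% of all IDs, and 1 and 0 had an unadjusted p under 0.05, against 2.83% and 2.89% of all IDs. At 24 h 1 of the 150 rose, against 1.27% of all IDs and 0.828% of those meeting the limits called higher, and the call, also made by edgeR, was absent from 5 of the 6 fits that omitted a library. In propranolol 4 mg/L the median was 0.29 at 6 h, where that of all IDs was -0.12, and 0.24 at 24 h with 0 called, against 0.136% and 0% of all IDs, and in isoprenaline at 6 h it was -0.19 with 0 called, against 0%. Unadjusted limma p-values under 0.05 numbered 0, 0 and 1 in these, against 7.76%, 6.28% and 4.66% of all IDs, and edgeR called 0. In the mixture at 6 h it was 0.62, with 145 of 150 higher and 86 whose libraries did not overlap with those at 1 h. Non-overlap upward held for 23.5% of all IDs and 18.8% of those meeting the limits. None of the 150 was called there by limma or edgeR, against 0.324% of all IDs, and 19 (12.7%) had an unadjusted p under 0.05, all higher, which is below the 14.8% of all IDs.

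**Figure D4:**
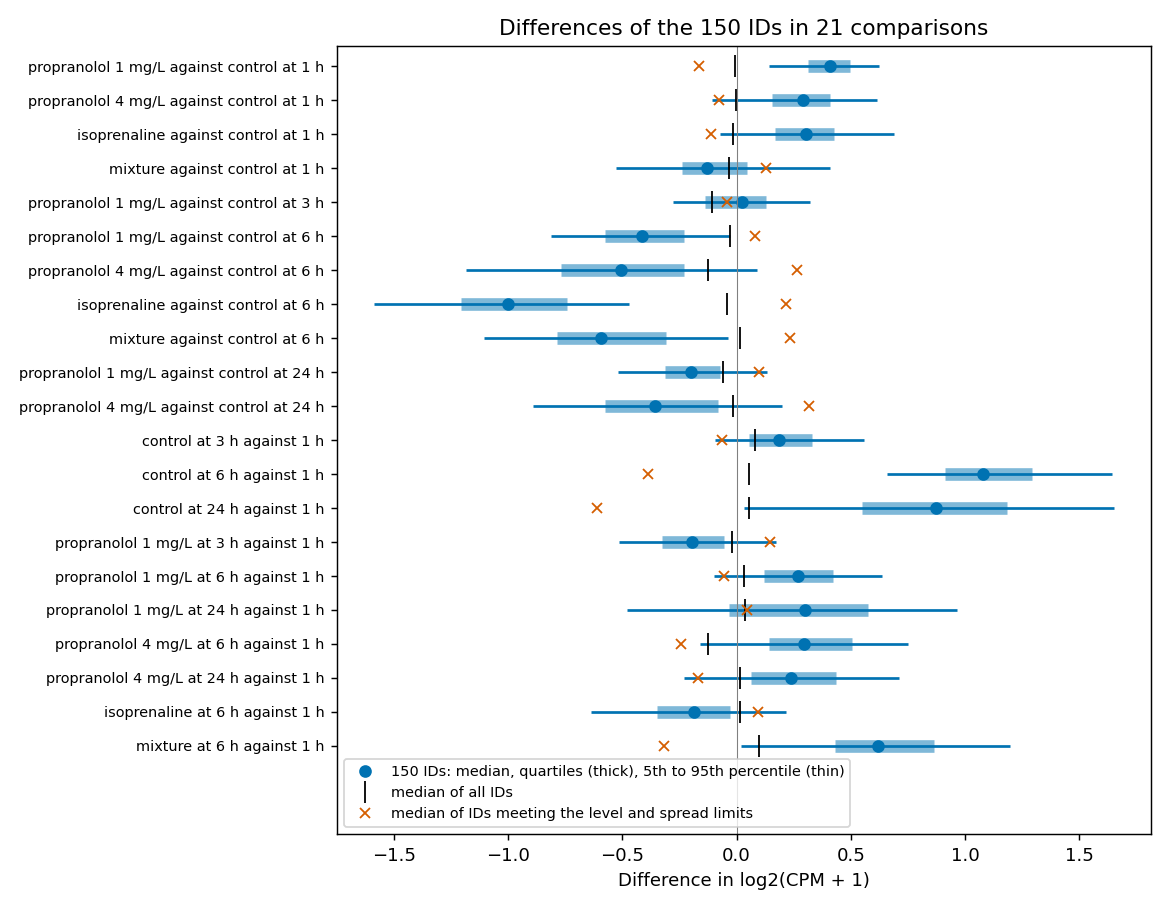
Differences of the 150 IDs in log2(CPM + 1) (horizontal axis) in each of 21 comparisons (vertical axis), as the median (point), quartiles (thick line) and 5th to 95th percentile (thin line), with the median of all IDs (tick) and of the IDs meeting the level and spread limits (cross). The medians furthest from 0 are those of isoprenaline against control at 6 h (-1.0) and of the control at 6 h against 1 h (1.08), which share the control libraries of 6 h.

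Against the control of the same hour, isoprenaline at 6 h gave the largest difference. All 150 IDs were lower than in the control, with a median log2 difference of -1.0 and a range of -2.08 to -0.08, against -0.04 over all IDs and 0.22 over those meeting the limits. In 118 of the 150 each isoprenaline library was below each control library, which held for 22.9% of all IDs and 16.8% of those meeting the limits. An unadjusted limma p under 0.05 was found for 78 of the 150 (52%), all lower, and for 22.4% of all IDs in either direction. The 150 were chosen to vary together, so these are not counts of separate observations. Dapma7bEVm015017t1, against which they were chosen, was at 21234 to 31332 CPM in isoprenaline and 297 to 3926 CPM in the control. By the adjusted limma test 1 of the 150 fell. Falls made up 1.52% of all IDs and 2.36% of those meeting the limits. The count was 8 without control replicate 1, the control library with 3926 CPM of Dapma7bEVm015017t1 (4.1% of all IDs fell there), and 0 without any other single library. With only these groups in the fit 49 fell (32.7%), against 5.86% of all IDs. That fit takes its spread from these libraries alone, and the isoprenaline libraries lay close together (SD of their mean level 0.145). The wider spread of other groups does not enter it.

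The other exposures at 6 h lay in the same direction from the shared control libraries, with median log2 differences of -0.41 for propranolol 1 mg/L, -0.51 for propranolol 4 mg/L and -0.59 for the mixture. In each, 0 of the 150 were called by limma or edgeR, against 0%, 3.94% and 1.67% of all IDs, and 1, 13 and 11 had an unadjusted p under 0.05, all lower. Those are 0.667%, 8.67% and 7.33% of the 150, below the 3.25%, 16.7% and 14.9% of all IDs with such a p in either direction. Without propranolol 4 mg/L replicate 2, the library at 5.33, 14 of the 150 (9.33%) were lower by the adjusted limma test, against 9.82% of all IDs, with the remaining library assumed to vary like those of other groups. The median of all IDs for propranolol 4 mg/L was -0.12 as deposited and 0.03 after median log-ratio scaling, and that of the 150 was then -0.33. At 24 h the medians were -0.20 for propranolol 1 mg/L and -0.36 for propranolol 4 mg/L, or -0.13 and -0.31 after median log-ratio scaling, with 0 of the 150 called by limma or edgeR, against 0.0157% and 1.61% of all IDs, and 0 and 5 with an unadjusted p under 0.05, against 2.97% and 15.5% of all IDs.

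At 1 h the direction was opposite in 3 of the 4 exposures. The median log2 differences from control were 0.41 for propranolol 1 mg/L and 0.29 for propranolol 4 mg/L. Isoprenaline gave 0.31, and the mixture gave -0.13, or -0.076 after median log-ratio scaling. The 3 positive values belong to the groups whose replicate 2 was high, and the control and the mixture had no such library. None of the 150 was called by limma or edgeR in these 4 exposures at 1 h, against 0%, 0.0104%, 0.0157% and 0% of all IDs, and 0, 1, 1 and 0 had an unadjusted p under 0.05, against 0.334%, 2.42% and 2.51% of all IDs for the first 3 and 621 of 19159 IDs for the mixture. At 3 h propranolol 1 mg/L gave a median of 0.02, and 0.16 after median log-ratio scaling, where the median of all IDs was -0.11 as deposited, with 0 called by limma or edgeR, 0 with an unadjusted p under 0.05 (4.82% of all IDs) and 0% of all IDs called.

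The change of an exposure's difference from control between hours was tested directly, in contrasts added after the data were seen. For isoprenaline at 6 h minus 1 h the median of the 150 was -1.30, against -0.07 over all IDs, and all 150 were negative. An unadjusted limma p under 0.05 was found for 55 of the 150 (36.7%) and for 9.59% of all IDs. None passed the adjusted test, with limma or with edgeR, in that contrast or in the other 6 of the kind, which had medians of -0.83 to -0.36 and 0 to 3 of the 150 with an unadjusted p under 0.05, each at a lower share than over all IDs. No single ID is thus shown to respond differently at 6 h than at 1 h. These contrasts share the control libraries.

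The 150 IDs with the most positive r with Dapma7bEVm015017t1 (0.988 to 0.999) moved the other way. Their median log2 difference was -4.05 in the control at 6 h against 1 h, -3.45 at 24 h against 1 h, and 4.16 in isoprenaline against control at 6 h. None of them was called in any of the 21 comparisons. Over all IDs, 0.00522% were called in the first of these 3, 5.28% fell in the second and 0.162% rose in the third. Dapma7bEVm015017t1 differed by -4.93, -4.42 and 5.17 in the same comparisons (SE 2.80 each, limma adjusted p of 0.273, 0.295 and 0.253). The 0 calls thus do not show the IDs that vary with it to be unchanged.

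Among the 150, Dapma7bEVm024808t1 had the most negative r (-0.937). In propranolol 4 mg/L at 6 h it held 3.96 and 21.5 CPM, and in isoprenaline at 1 h 4.04, 17.6 and 4.296 CPM, so single libraries of a group differed several-fold. In the control it held 7.09, 19.0 and 21.03 CPM at 6 h, against 4.24, 5.26 and 5.85 CPM at 1 h, with no overlap. The difference of 1.33 (SE 0.604) did not pass the limma test (adjusted p 0.213).

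Dapma7bEVm010087t1 was the most abundant of the 150, with a mean of 1574 CPM. In the control it was at 2838, 1694 and 2874 CPM at 24 h, against 813, 1065 and 1121 CPM at 1 h, without overlap. It rose by 1.28 (SE 0.409, limma adjusted p 0.0366), a call that edgeR also made (adjusted p 0.042). When single libraries were omitted it was kept only without replicate 2 at 24 h (0.0271), and the other 5 fits gave limma adjusted p of up to 0.17. In isoprenaline at 6 h it was at 1283, 1330 and 1258 CPM, against 1376, 2115 and 2261 CPM in the control, a log2 difference of -0.54 (limma adjusted p 0.397).

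Dapma7bEVm011308t1 showed the largest rise. It was at 1000.0, 579 and 1102 CPM in the control at 24 h, against 113, 171 and 191 CPM at 1 h, and all 24 h libraries were above all 1 h libraries. The log2 change was 2.47 (SE 0.434, limma adjusted p 0.00038), and it held without each library in turn (adjusted p of up to 0.00648). In propranolol 1 mg/L it was at 1043, 536 and 540 CPM at 24 h, against 157, 392 and 204 CPM at 1 h, a rise of 1.53 in log2 units (limma, SE 0.434, adjusted p 0.0445). Omitting single libraries, the call was kept only without replicate 2 at 1 h (0.0209), with limma adjusted p of up to 0.222 in the other 5 fits, and it was also lost with only these groups in the fit (0.232). Its levels at 24 h were high also where Dapma7bEVm015017t1 was high. Control replicate 2 at 24 h held 579 CPM beside 22432 CPM of Dapma7bEVm015017t1, and control replicate 1 at 1 h held 113 CPM beside 29688 CPM. Its r across group means was -0.38. In isoprenaline at 6 h it was at 272, 244 and 300.0 CPM, against 208, 349 and 327 CPM in the control, with overlap and a log2 difference of -0.08 (limma adjusted p 0.915).

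Dapma7bEVm026442t1 was at 37.8, 27.7 and 59.6 CPM in the control at 24 h, against 3.08, 8.37 and 9.84 CPM at 1 h, without overlap. It rose by 2.45 (SE 0.786, limma adjusted p 0.0371). The edgeR adjusted p was 0.0563, and when single libraries were omitted the limma call was kept only without replicate 2 at 24 h (0.0438; up to 0.204 in the other 5 fits). Over the 44 libraries it ranged 37.4-fold, from 1.59 CPM in propranolol 4 mg/L replicate 1 at 6 h to 59.6 CPM in control replicate 3 at 24 h.

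Dapma7bEVm025928t1 was the only one of the 150 that fell in a comparison. It was at 5.08, 5.46 and 4.86 CPM in isoprenaline at 6 h, against 14.1, 21.02 and 21.1 CPM in the control, without overlap. The log2 change was -1.67 (SE 0.449, limma adjusted p 0.0486), and edgeR gave an adjusted p of 0.0475. Omitting single libraries, the limma call was kept only without control replicate 1 (0.0301; up to 0.22 in the other 5 fits). It was also lost with a pseudocount of 0.25 (0.0534) and with a mean of at least 5 CPM (0.0538). At 24 h the control held 26.8, 14.2 and 26.7 CPM.

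**Figure D5:**
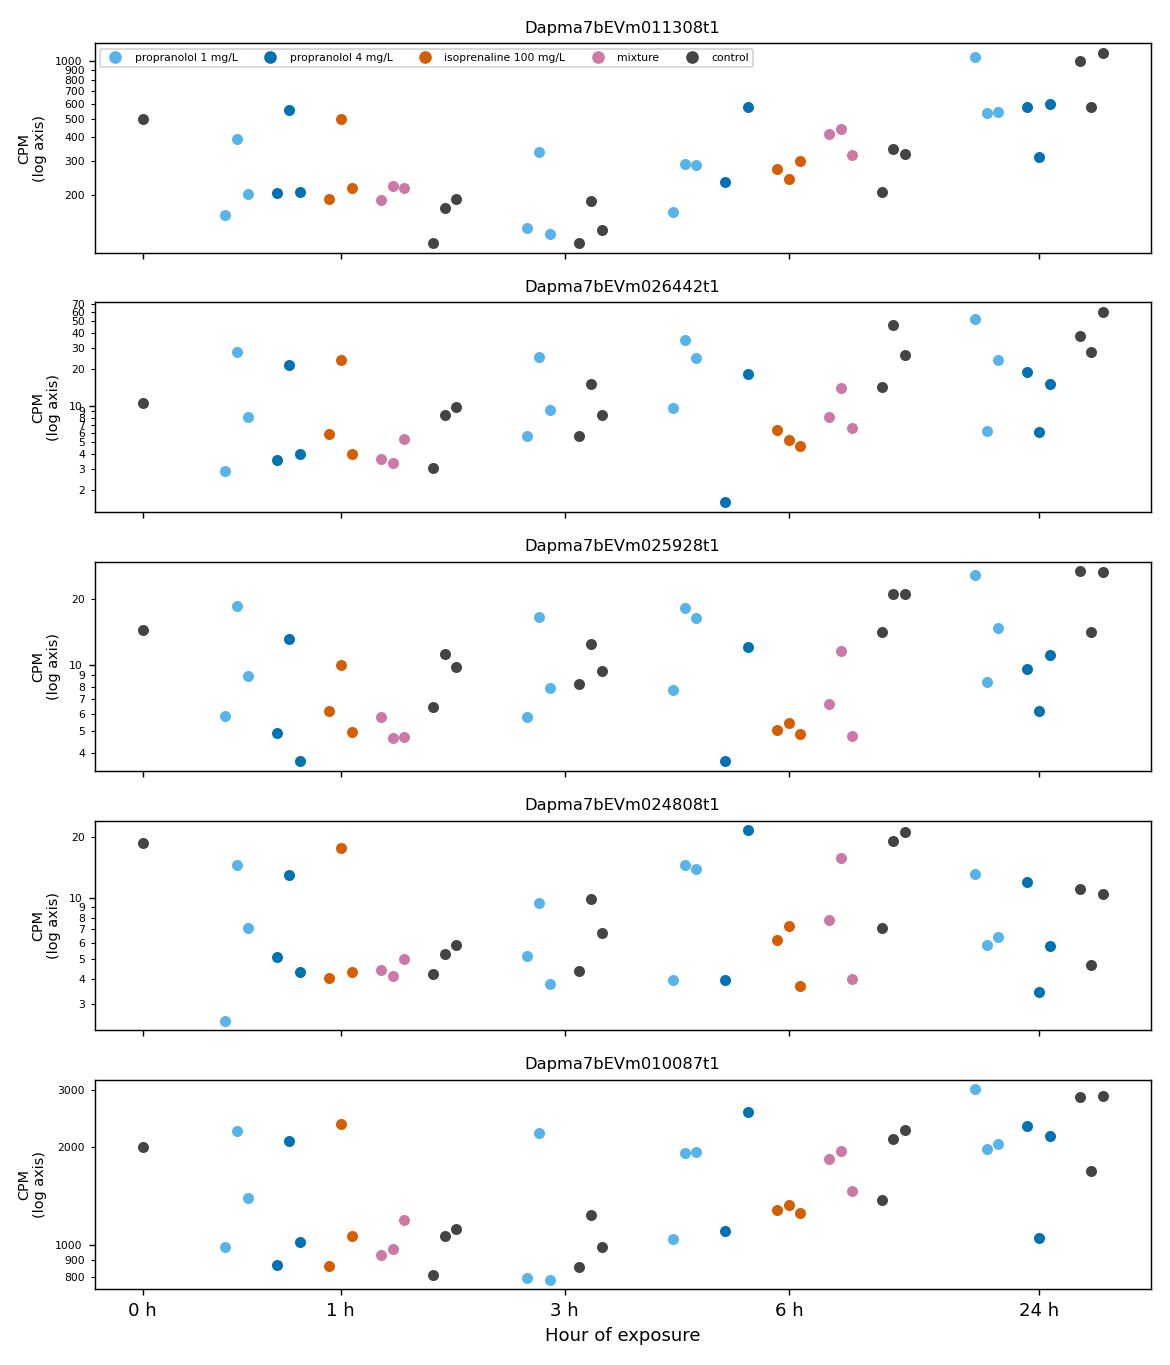
CPM (log axis, scaled separately per panel) of 5 of the 150 IDs in each of the 45 libraries, by hour, with exposures left of the control and points by replicate. Dapma7bEVm011308t1 reaches 579 to 1102 CPM in the control at 24 h, against 113 to 191 CPM at 1 h, and Dapma7bEVm025928t1 lies at 4.86 to 5.46 CPM in isoprenaline at 6 h, below the control at 14.1 to 21.1 CPM.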

How the data were processed

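The deposited values are CPM, made by the authors per 1000000 counted reads of each library. Tools named in the submitters' processing notes are edgeR, HTSeq, Bowtie2 (2.1.0) and Trim Galore (0.3.2). No source used here names a build or annotation. Per the labels' protocols, 500 ng of RNA entered a strand-specific TruSeq mRNA preparation. Whole reads were recovered from the CPM steps for 100% of 862155 values within 0.01 read. A floor of 3 reads stands for 0.0686 to 0.222 CPM in the 44 libraries, for counting error only. No ID matched the reference table of 28335 genes (0 matches), so all planned gene lists were void.

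Groups came from the library titles, which add 0 and 3 h to the hours of the protocol. The filter (at least 1 CPM in at least 3 libraries) kept all 19159 IDs. The test was limma 3.58.1 (trend and robust, R 4.3.3) on log2(CPM + 1), 16 group means, 29 residual degrees of freedom, Benjamini-Hochberg within each of 21 comparisons over all IDs. Fold changes on this scale understate those of low IDs. edgeR 4.0.16 (quasi-likelihood) on the recovered reads was an alternative. The 43 pairs of libraries of a group differed by more than counting error, with chi-square over its degrees of freedom at 17.4 or more. Libraries with the same replicate number deviated together (r over 0.1 for each pair) in 4 of 19 comparisons that have 3 pairs. These were propranolol 1 mg/L with the control of 1, 3 and 6 h and with its own 1 h group at 6 h (lowest r of 0.22, 0.164, 0.389 and 0.397). In these the replicate block left the count at 0. The comparisons of propranolol 4 mg/L at 6 h have 2 pairs each. Both pairs deviated together with the control (r of 0.545 and 0.716) and with its own 1 h group (0.75 and 0.847). On simulated data for the control at 6 h against 1 h over 19159 IDs, limma recovered 25.4%, 70.2% and 83.3% of IDs changed 2-, 4- and 8-fold, with 3 false calls. The changed IDs were drawn from all IDs with a mean of at least 1 CPM, and each ID varied independently. The 150 IDs were chosen for a wide spread and vary together, so these rates do not apply to them.

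The 150 IDs and the comparisons were chosen with earlier results of these data known. The IDs named were Dapma7bEVm015017t1, the ID with the most negative r, the most abundant, and those with the 2 largest rises and falls among calls without overlap, of which 1 was a fall.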

Additional observations from a re-analysis of the deposited data

Results flagged for a closer look

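The single control library at 0 h, outside every comparison, stood above the control at 1 h. The mean log2(CPM + 1) of the 150 IDs was 5.09 in it, against 3.69, 4.07 and 4.07 in the 3 control libraries at 1 h, and Dapma7bEVm015017t1 was at 96.9 CPM, against 29688, 19084 and 17631 CPM. Of the 150 IDs, 130 (86.7%) were above every 1 h control library and 15 below, while 54.4% of all IDs and 25.4% of those meeting the level and spread limits were above. The median log2 difference was 1.28 as deposited, against 0.28 over all IDs, and 0.99 with 124 above after median log-ratio scaling. With 1 library at 0 h the difference was not tested.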

How the results depend on the processing

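With all libraries kept, 144 counts repeated under other settings stayed within 1.5 times of the reported count and 10 did not, and the cause was not tested. Most of the 144 were counts of 0 that stayed at 0, so they say little about how stable the counts above 0 are. Those counts moved more often, as given below. Choosing the 150 IDs again kept 75 with no minimum SD and 65 with a mean of at least 20 CPM, where other IDs could enter, and 103 to 136 under the other settings (103 with the replicate block, 128 without the reads of the 10 most abundant IDs and Dapma7bEVm015017t1, 130 with median log-ratio scaling, 133 with Spearman rho, 136 with a pseudocount of 0.25). Leaving out each library kept 118 to 146.

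With only the groups compared in the fit, 19 of the 150 were called in the control at 6 h against 1 h (all higher, 12.7%, against 0.585% of all IDs), 58 at 24 h against 1 h (57 higher, 38%, against 8.43%), 49 in isoprenaline against control at 6 h (all lower, 32.7%, against 5.86%) and 0 in propranolol 1 mg/L at 24 h against 1 h. Such fits take their spread from the compared libraries alone, so the wide spread within other groups does not enter. The replicate numbers are not shown to pair libraries in these comparisons. With the replicate block 26 were called in the control at 24 h against 1 h (all higher, 17.3%, against 9.85% of all IDs) and 4 in isoprenaline against control at 6 h (all lower, 2.67%, against 2.89%), and no other count moved. Isoprenaline against control at 6 h had 0 with a pseudocount of 0.25 and 0 with a mean of at least 5 CPM. Removing no IDs changed nothing, since the filter removed none.

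With libraries left out in turn, counts ranged from 2 to 20 in the control at 24 h against 1 h, 0 to 8 in isoprenaline against control at 6 h, 0 to 14 in propranolol 4 mg/L against control at 6 h, and 0 to 1 in propranolol 1 mg/L at 24 h against 1 h, and were 0 in the other 17 comparisons. The log2 difference of Dapma7bEVm011308t1 in isoprenaline against control at 6 h, -0.08, ranged from -0.31 to 0.057 and turned positive without control replicates 2 (0.057) and 3 (0.0098). That of Dapma7bEVm024808t1 in propranolol 1 mg/L at 24 h against 1 h, 0.24, ranged from -0.33 to 0.75 and turned negative without replicate 1 at 1 h (-0.33) and replicate 1 at 24 h (-0.09). None of these was called. The smallest value among the 150 IDs rested on 13 reads.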
